A study of Mus musculus with 16 samples.

Results

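The 10 genes described here encode negative regulators of AKT, of mTORC1 and of cap-dependent translation. They were chosen by name, with earlier results of these data known: Trib3, Ddit4, Sesn1, Sesn2, Sesn3, Tsc1, Tsc2, Deptor, Eif4ebp1 and Eif4ebp2. All 10 had a row among the 10208 genes of the authors' deposited table, and each name was held by 1 row. The table compares pancreatic islets of 7 mouse samples labelled Cre+T with 9 labelled Cre-T, all taken 6 days after tamoxifen. The labels give every sample the genotype Ins1-/-:Ins2f/f:Pdx1CreERT:mTmG on a mixed, mostly C57Bl/6 background, so all of them lacked Ins1 and carried a floxed Ins2, and mTmG is a fluorescent Cre reporter. Tamoxifen activates CreERT, and the Pdx1 sequence that drives it is active in beta cells and in other cells of the pancreas. Pdx1CreERT is thus named for Cre-T as well. The labels leave unstated what sets Cre-T apart from Cre+T, how old the animals were or whether each sample was 1 animal. The p-values therefore cover only the spread between these samples, which may be technical.

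AKT is the kinase that insulin and growth factor receptors activate through PI3K, and it relieves the TSC complex's block on the GTPase Rheb, which switches on mTORC1. Amino acids act through the Rag GTPases, which bring mTORC1 to the lysosome. Active mTORC1 phosphorylates the 4E-BP proteins and thereby frees the cap-binding protein eIF4E for translation. Several of the brakes are transcribed on demand, when endoplasmic reticulum stress or amino acid shortage raises the transcription factor ATF4, and beta cells, which make large amounts of proinsulin, use this response.

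The authors' deposited table gives 1 log2 fold change, 1 mean and 1 limma test per gene and no value per sample, so no range over samples, overlap of groups or SD can be given. The direction is not named in its header, and fold changes were taken as Cre+T over Cre-T from the signs of Ins2, which has the highest mean of all genes, at -0.47 ± 0.17, and Esr1, whose domain is part of CreERT, at 9.30 ± 0.39 per the authors' deposited table. These signs are therefore no test of the labels. Esr1 differed by 9.30 log2 units although the labels name Pdx1CreERT for both groups. Ins2 and Esr1 RNA differed together, so the parts of Ins2 loss and of CreERT in the other fold changes cannot be told apart. Errors after ± are standard errors, obtained as the fold change divided by limma's moderated t, and 95% intervals use the 16.1 degrees of freedom that t and p imply. A gene is said to be higher or lower, to rise or to fall, where the authors' limma p, adjusted over all rows by Benjamini-Hochberg, is under 0.05. Beside beta-cell genes the islets held RNA of other cells. Of 13 acinar markers with a row, 13 were higher in Cre+T, with a median log2 fold change of 2.54, as were 3 of 4 red blood cell, 2 of 6 leukocyte and 2 of 7 endothelial markers, per the authors' deposited table. Of all genes, 17.6% were higher per the authors' deposited table. Beta-cell markers gave 5 higher and 1 lower (Ins2) of 9, with a median log2 fold change of 0.57, per the authors' deposited table. Stroma markers gave 2 higher and 1 lower of 6 per the authors' deposited table. Counts of the other marker lists are given with the processing. The part of any of these cell types in the results below was not tested. In RNA of whole islets, fewer cells of a type and less RNA per cell cannot be told apart.

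Of the 10 brakes, 4 were lower in Cre+T (Trib3, Eif4ebp1, Sesn2 and Tsc2), 1 was higher (Sesn1) and 5 did not pass the test per the authors' deposited table. Over all rows of the authors' deposited table, 20.1% of genes were called lower and 17.6% higher. The 10 were chosen with earlier results of these data known, so their count is no independent support. The median log2 fold change of the 10 was -0.16, against -0.00298 for all genes of the authors' deposited table. The genes of this group spread widely, from Trib3 at -1.82 to Sesn1 at 0.34 log2 units per the authors' deposited table. The 3 largest falls were Trib3, Eif4ebp1 and Sesn2, with the remaining 7 genes between -0.23 and 0.34 log2 units per the authors' deposited table.

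**Figure D1:**
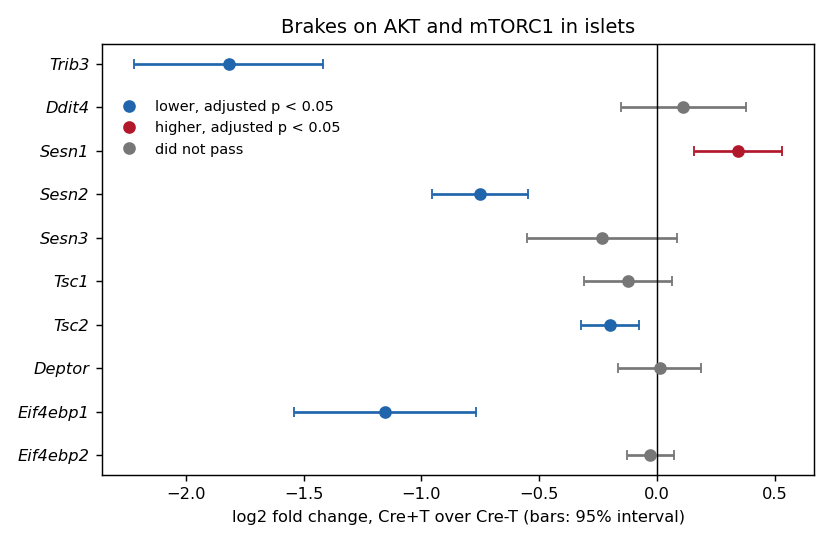
The log2 fold change (Cre+T over Cre-T, horizontal axis) of each of the 10 genes is drawn as a point with its 95% interval, coloured by limma adjusted p per the authors' deposited table. Trib3, Eif4ebp1 and Sesn2 lie well to the left of 0, Tsc2 slightly to the left and Sesn1 to the right, while the intervals of the other 5 genes include 0; Sesn1 no longer passed with summed expression equalised, where Eif4ebp2 and Tsc1 passed as lower.

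Trib3 and Ddit4 are brakes that link stress to AKT or mTORC1. Trib3 encodes a pseudokinase that can bind AKT and is a target of ATF4 and of CHOP, and Ddit4 encodes REDD1, which acts through the TSC complex and is induced by ATF4, hypoxia and glucocorticoids. The sequences before the starts of 3 genes are shown because ATF4 is known to induce all 3, and their transcripts differed here in how they moved. They are from RefSeq on GRCm38.p6, 5′ to 3′ on the strand of the gene, and end before the first annotated exon. Capitals mark matches to the motifs searched.
Trib3, chr2:152344061-152344310, minus strand: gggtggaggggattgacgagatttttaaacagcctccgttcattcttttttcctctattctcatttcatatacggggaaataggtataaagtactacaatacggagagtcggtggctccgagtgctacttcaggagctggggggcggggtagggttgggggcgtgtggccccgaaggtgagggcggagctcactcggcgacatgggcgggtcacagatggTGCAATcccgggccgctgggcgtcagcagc
Sesn2, chr4:132510502-132510706, minus strand: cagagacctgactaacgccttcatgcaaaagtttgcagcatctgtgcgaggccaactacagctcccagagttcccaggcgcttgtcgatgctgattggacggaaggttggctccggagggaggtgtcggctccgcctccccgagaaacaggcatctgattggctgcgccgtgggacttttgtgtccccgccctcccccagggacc
Ddit4, chr10:59951835-59952020, minus strand: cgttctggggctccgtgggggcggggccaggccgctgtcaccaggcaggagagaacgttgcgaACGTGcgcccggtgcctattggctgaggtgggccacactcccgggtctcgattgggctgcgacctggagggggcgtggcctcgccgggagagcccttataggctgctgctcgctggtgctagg
The capitals in Trib3 are TGCAAT, letters that also occur in the C/EBP part of a C/EBP-ATF element. This motif was chosen after the sequences were seen. The motif TGATGNA, planned for the C/EBP-ATF element, was not found in the Trib3 stretch. The capitals in Ddit4 are ACGTG, the letters of the core of a hypoxia response element.

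Motifs were searched on both strands of the 250 bases before each RefSeq start, for the 8 members with a promoter in the table; Eif4ebp1 and Deptor had none. TGATGNA, found within the C/EBP-ATF element that ATF4 binds, was in 0 of the 8 and in 10.4% of the 32851 promoters of the table. The FoxO core GTAAACA was also in 0 of 8, against 3.17% of promoters. TGACGT, an ATF site of the cyclic AMP response type, was in 1, Eif4ebp2, against 6.47%. In Eif4ebp2 it overlapped the motif ACGTG, which was in 2 of the 8 members, Eif4ebp2 and Ddit4, against 16.6% of promoters. TGCAAT was in Trib3 only among the 8, against 7.32% of promoters. A match describes letters in this window and no binding was measured.

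Trib3 fell to 28.4% of its Cre-T level, with a 95% interval of 21.5% to 37.4% (log2 fold change -1.82 ± 0.19, limma adjusted p = 3.72e-05), per the authors' deposited table. By p it ranked 12 among all genes and by size of fall 27 per the authors' deposited table. With groups of 7 and 9, its mean and fold change put it at an estimated 7.12 log2 CPM in Cre-T and 5.30 in Cre+T, from the authors' deposited table. Trib3 (ENSMUSG00000032715.9) lies on chromosome 2 from 152337422 to 152344032 on the minus strand in GENCODE release M21, on GRCm38.

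Ddit4 did not follow it. Its log2 fold change was 0.11 ± 0.13 (limma adjusted p = 0.503), or 108% of the Cre-T level with an interval of 89.8% to 130%, per the authors' deposited table. That interval does not reach the fall of Trib3 or of Sesn2, although the difference between genes cannot be tested without values per sample. Ddit4 (ENSMUSG00000020108.3) is on chromosome 10 from 59949669 to 59951834 on the minus strand. With the summed expression of both groups equalised, its value was -0.032, which also did not pass (adjusted p = 0.857).

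The sestrins Sesn1, Sesn2 and Sesn3 went in different directions. Sestrins are stress-induced proteins that restrain mTORC1 by binding GATOR2, and Sesn2 is also a leucine sensor. In other settings Sesn1 is a target of p53, Sesn2 of ATF4 and p53, and Sesn3 of FoxO factors. Sesn2 fell to 59.4% of the Cre-T level, with an interval of 51.6% to 68.3% and a limma adjusted p of 1.63e-04, ranking 41 by p per the authors' deposited table. Sesn1 rose to 127% of the Cre-T level (log2 fold change 0.34 ± 0.09, interval 111% to 145%, limma adjusted p = 0.00801) per the authors' deposited table, but did not pass once summed expression was equalised (0.20, adjusted p = 0.0713). Sesn3 stood at 85.1% of the Cre-T level and did not pass, with an interval of 68.1% to 106% and a limma adjusted p of 0.232, per the authors' deposited table. Its standard error of 0.15 log2 units was wider than the median of 0.10 over all genes of the authors' deposited table. Sesn1 and Sesn2 thus passed the test in opposite directions, with intervals that do not meet, and the difference itself was not tested. Sesn2 (ENSMUSG00000028893.8) is on chromosome 4 from 132492032 to 132510501, Sesn1 (ENSMUSG00000038332.7) on chromosome 10 from 41809935 to 41908424 and Sesn3 (ENSMUSG00000032009.7) on chromosome 9 from 14275067 to 14333101.

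Tsc1, Tsc2 and Deptor had log2 fold changes between -0.20 and 0.01 per the authors' deposited table. Tsc1 encodes hamartin, which stabilises the complex, and Tsc2 encodes tuberin, its GTPase-activating subunit for Rheb. Tsc2 fell to 87.0% of the Cre-T level (-0.20 ± 0.06, interval 79.9% to 94.8%, limma adjusted p = 0.0145) per the authors' deposited table. Of its exon bases, 7.20% overlap those of Pkd1 on the opposite strand, whose log2 fold change was 0.27 per the authors' deposited table. No source used here names the counting tool or its use of strand, so reads from the shared bases may count for either gene. Tsc1 was at 91.7% and did not pass, with an interval of 80.6% to 104% (limma adjusted p = 0.273) per the authors' deposited table. Deptor, which encodes an inhibitor that binds mTOR itself, was at 101% of the Cre-T level, with an interval of 89.2% to 114% (limma adjusted p = 0.926) per the authors' deposited table. Tsc2 (ENSMUSG00000002496.9) is on chromosome 17 from 24595816 to 24632630, Tsc1 (ENSMUSG00000026812.11) on chromosome 2 from 28641228 to 28691167, and Deptor (ENSMUSG00000022419.10) on chromosome 15 from 55112317 to 55259271.

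Of the 4E-BP genes, Eif4ebp1 fell and Eif4ebp2 did not pass per the authors' deposited table, and the difference between them was not tested. Both encode small proteins that hold eIF4E away from eIF4G until mTORC1 phosphorylates them, and Eif4ebp1 is a target of ATF4 in beta cells. Eif4ebp1 fell to 44.9% of its Cre-T level, with an interval of 34.3% to 58.7% (-1.16 ± 0.18, limma adjusted p = 5.23e-04), per the authors' deposited table. Only 98 of the 10208 genes of the authors' deposited table had a log2 fold change as low as that or lower, itself included. Eif4ebp2 was at 98.0% of the Cre-T level, with an interval of 91.5% to 105% (limma adjusted p = 0.653) per the authors' deposited table. Its standard error of 0.05 log2 units was the smallest of the 10, and with summed expression equalised it passed as lower (-0.17, adjusted p = 0.00782). Eif4ebp1 (ENSMUSG00000031490.5) lies on chromosome 8 from 27260329 to 27276674, and Eif4ebp2 (ENSMUSG00000020091.9) on chromosome 10 from 61428491 to 61452661.

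The 10 genes were of middle to high abundance for this table. Their means ran from 4.92 log2 CPM for Sesn1 to 7.20 for Deptor, against a median of 5.21 over all genes of the authors' deposited table. Per kb of all annotated exons, Ddit4 had the highest mean, at 5.83 log2 CPM per kb, followed by Sesn2 and Trib3 at 5.24 each, Eif4ebp1 at 4.89 and Deptor at 4.05, from the authors' deposited table. The 5 others were lower, at 3.04 for Tsc2, 2.93 for Sesn1, 2.77 for Eif4ebp2, 2.61 for Tsc1 and 1.44 for Sesn3 log2 CPM per kb, from the authors' deposited table. Trib3, Eif4ebp1 and Sesn2, which fell most, were therefore among the 4 with the highest level per length, and Ddit4, the highest of all, was the one of these 4 that did not pass. The table has no spread for the means, so whether neighbours in this order differ is unknown, and unused exons make long genes such as Sesn3 look lower.

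**Figure D2:**
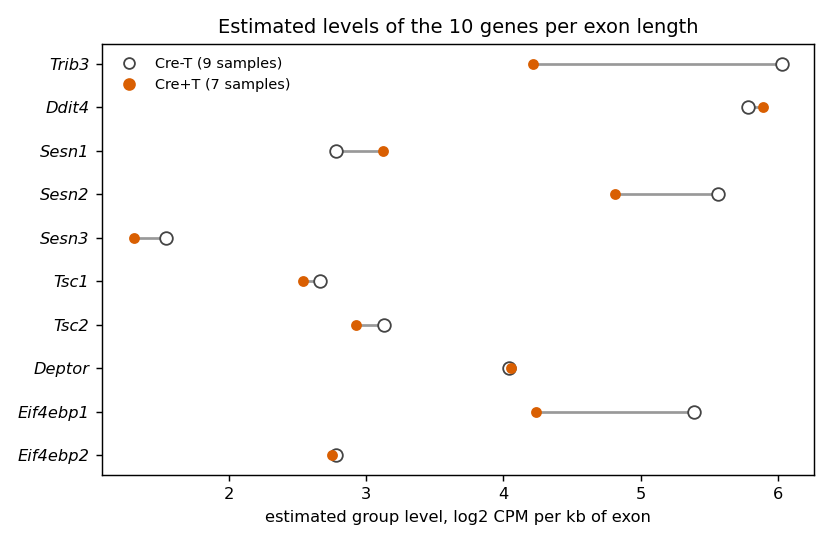
Group levels of the 10 genes in log2 CPM per kb of exon, estimated from the mean and fold change of the authors' deposited table for 9 Cre-T (open) and 7 Cre+T (filled) samples; no error is drawn because the table gives none for levels. Trib3 and Eif4ebp1 show the longest lines, with Trib3 going from the highest estimated Cre-T level of the 10 to about that of Eif4ebp1 and Deptor in Cre+T.

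**Figure D3:**
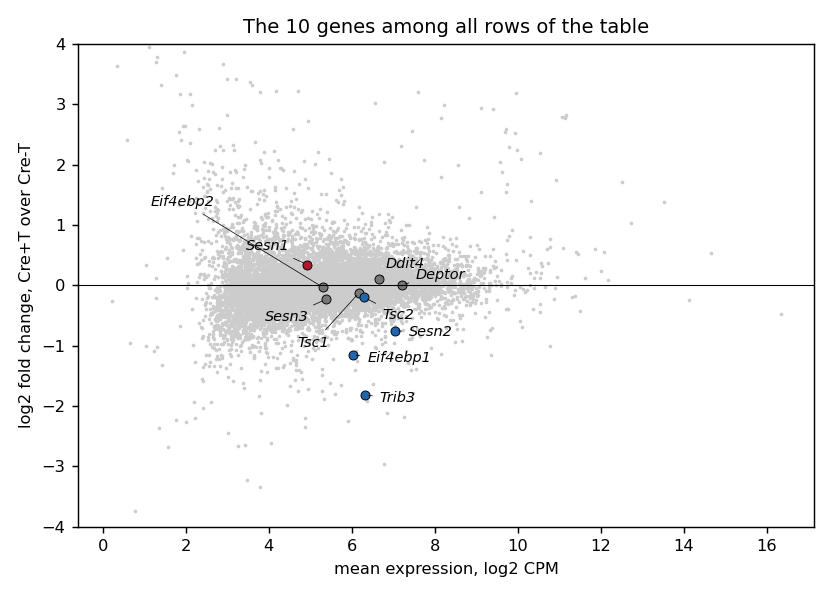
Each of the 10208 genes is a grey point by its mean (log2 CPM) and its log2 fold change per the authors' deposited table, and the 10 named genes are marked in blue (lower), red (higher) or dark grey (did not pass); 6 genes beyond 4 log2 units are outside the frame. Trib3 and Eif4ebp1 lie below the cloud at means of 6.32 and 6.02, while Deptor and Eif4ebp2 lie on the line at 0.

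The genes that surround these brakes in the pathway were read from 10 lists, described by counts and medians. Their counts stand against 17.6% of all genes higher and 20.1% lower per the authors' deposited table, and against 8.42% higher and 38.5% lower with summed expression equalised. With the median ribosomal protein gene at 0, 12.2% of all genes were higher and 27.7% lower. In the kinase core of mTORC1, mTORC2 and AKT, 2 of 11 genes were lower, none was higher by the limma adjusted p, and the median was -0.01 log2 units per the authors' deposited table. That share of lower genes is near the 20.1% of all genes per the authors' deposited table. At an unadjusted limma p under 0.05, 1 gene of the core was higher and 3 were lower per the authors' deposited table. Akt1s1, which encodes the mTORC1 inhibitor PRAS40, fell by 0.36 (± 0.09, limma adjusted p = 0.00632) and the kinase gene Mtor by 0.27 (± 0.08, adjusted p = 0.0156) log2 units per the authors' deposited table. Mlst8, a subunit of both complexes, was at -0.28 ± 0.11 and did not pass per the authors' deposited table. Akt1 (-0.01 ± 0.07), Akt2 (-0.07 ± 0.07) and Rheb (0.01 ± 0.08), picked after their values were seen, did not pass either per the authors' deposited table. With summed expression equalised, 5 genes of the core were lower, Akt2 among them (-0.21, adjusted p = 0.0251), and none higher, against 38.5% lower and 8.42% higher of all genes.

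A list of other brakes on PI3K, AKT and mTORC1 also held a partner of the TSC complex, and Telo2 and Tti1, mTOR cofactor genes that are no brakes. It had 3 higher and 6 lower genes of 17, with a median of -0.04, per the authors' deposited table, where 17.6% of all genes were higher and 20.1% lower. Grb10, an adaptor that dampens insulin receptor signalling, fell by 0.75 ± 0.13, to 59.3% of the Cre-T level, per the authors' deposited table. Telo2, a cofactor for the stability of mTOR, fell by 0.64 ± 0.13 per the authors' deposited table. Tti1, picked after its value was seen, fell by 0.36 ± 0.09 per the authors' deposited table. Telo2 and Tti1 are both among the 6 lower genes. The other tribbles genes went the other way from Trib3: Trib1, a pseudokinase that recruits the ubiquitin ligase COP1, rose by 0.88 ± 0.19 and Trib2, picked after its value was seen, by 0.62 ± 0.17 log2 units per the authors' deposited table. Tbc1d7, the third subunit of the TSC complex, also picked afterwards, was low at a mean of 3.21 log2 CPM and fell by 0.59 ± 0.17 per the authors' deposited table. With summed expression equalised the list had 2 higher and 7 lower genes, and Trib1 and Trib2 were still higher.

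On the amino acid arm, calls were in 1 direction. Of 13 genes of GATOR complexes and amino acid sensors, 4 were lower and 0 higher (median -0.10), and of 12 of the Rag GTPases, Ragulator and folliculin, 4 were lower and 0 higher (median -0.10), per the authors' deposited table. At an unadjusted limma p under 0.05 no gene of either list was higher per the authors' deposited table. Lars, the leucyl-tRNA synthetase that has also been described as a leucine sensor, fell to 55.1% of the Cre-T level, and the GATOR1 subunits Depdc5 and Nprl2 fell by 0.48 ± 0.12 and 0.36 ± 0.10 log2 units per the authors' deposited table. Flcn, which encodes folliculin, fell by 0.47 ± 0.10, the Ragulator subunit gene Lamtor1 by 0.33 ± 0.07 and the GTPase gene Rragb by 0.41 ± 0.14 per the authors' deposited table. Of all genes, 20.1% were lower and 17.6% higher per the authors' deposited table. With summed expression equalised, 8 genes of each list were lower, against 38.5% of all genes. Of 11 genes of AMPK and its upstream kinases, 3 were higher and 3 lower (median 0.18) per the authors' deposited table. They included the regulatory subunits Prkag1 (-0.24 ± 0.05) and Prkag2 (0.36 ± 0.08) and the catalytic subunit Prkaa2 (-0.60 ± 0.13) per the authors' deposited table.

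Downstream of mTORC1, 5 of 17 genes of cap binding and the S6 kinase arm were higher and 1 was lower (median 0.07) per the authors' deposited table. Pdcd4, an inhibitor of the helicase eIF4A that S6 kinase marks for degradation, rose to 163% of the Cre-T level per the authors' deposited table. Eif4e3, a cap-binding relative of eIF4E, rose by 0.34 ± 0.08 and Eif4g3, a scaffold of the cap complex, fell by 0.42 ± 0.07 per the authors' deposited table. The split turned with summed expression equalised, to 1 higher and 5 lower, and Eif4e3 then did not pass (0.19, adjusted p = 0.0675). With the median ribosomal protein gene at 0 it was 4 higher and 3 lower. Eif4e itself, picked after its value was seen, was at 0.17 ± 0.07 and did not pass (limma adjusted p = 0.0714) per the authors' deposited table.

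The lists of known inducers differed from each other in their counts. Of 23 genes of ATF4, CHOP and their targets other than the brakes, 20 were lower and none higher at a limma adjusted p under 0.05, with a median of -0.74 per the authors' deposited table. Of all genes, 20.1% were lower and 17.6% higher per the authors' deposited table. The list was drawn up with earlier results of these data known, so its count is no independent support. None of the 23 had a positive log2 fold change, the highest being -0.23 per the authors' deposited table. The secreted factor gene Gdf15 (-2.44 ± 0.33), the folate enzyme gene Aldh1l2 (-2.96 ± 0.40) and the amino acid transporter gene Slc3a2 (-0.35 ± 0.05) had the smallest p per the authors' deposited table. Atf4 was at -0.27 ± 0.07 and Ddit3, which encodes CHOP, at -1.11 ± 0.19, and both, picked after their values were seen, were lower per the authors' deposited table. The 3 brakes with the largest falls are themselves known ATF4 targets, as is Ddit4, which did not pass. Whether ATF4 had a part in these falls was not tested.

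Of 14 genes of p53 and its targets, 1 was higher and 3 were lower (median -0.05), namely Perp (0.60 ± 0.21), and Bax (-0.47 ± 0.10), Bbc3 (-0.89 ± 0.25) and Trp53inp1 (-0.48 ± 0.14), all of them linked to cell death, per the authors' deposited table. Of all genes, 17.6% were higher and 20.1% lower per the authors' deposited table, so the share of lower genes in the list is near that of all genes. Perp was picked after its value was seen. Perp did not pass with summed expression equalised (adjusted p = 0.0858) or with the median ribosomal protein gene at 0 (adjusted p = 0.0553). Of 15 genes of FoxO factors and targets, 6 were higher and 3 lower (median -0.11), against 17.6% and 20.1% of all genes, per the authors' deposited table. The pyruvate dehydrogenase kinase gene Pdk4 fell to 29.8% of the Cre-T level, and the factor gene Foxo1 and the cyclin gene Ccng2 rose by 0.50 ± 0.10 and 0.55 ± 0.14 log2 units per the authors' deposited table. The FoxO split was 4 higher and 8 lower with summed expression equalised, and 4 and 4 with the median ribosomal protein gene at 0. Of 13 hypoxia and glucocorticoid targets, which share inducers with Ddit4, 3 were higher and 1 was lower (median -0.13), against 17.6% and 20.1% of all genes, per the authors' deposited table. The 3 were the kinase gene Sgk1 (0.79 ± 0.16), the phosphatase gene Dusp1 (1.05 ± 0.24) and the clock gene Per1 (0.59 ± 0.17), and the 1, picked after its value was seen, was Pdk1 (-1.05 ± 0.36), which encodes a pyruvate dehydrogenase kinase, per the authors' deposited table. Under both of these scalings 3 genes of the list were higher and 3 lower.

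**Figure D4:**
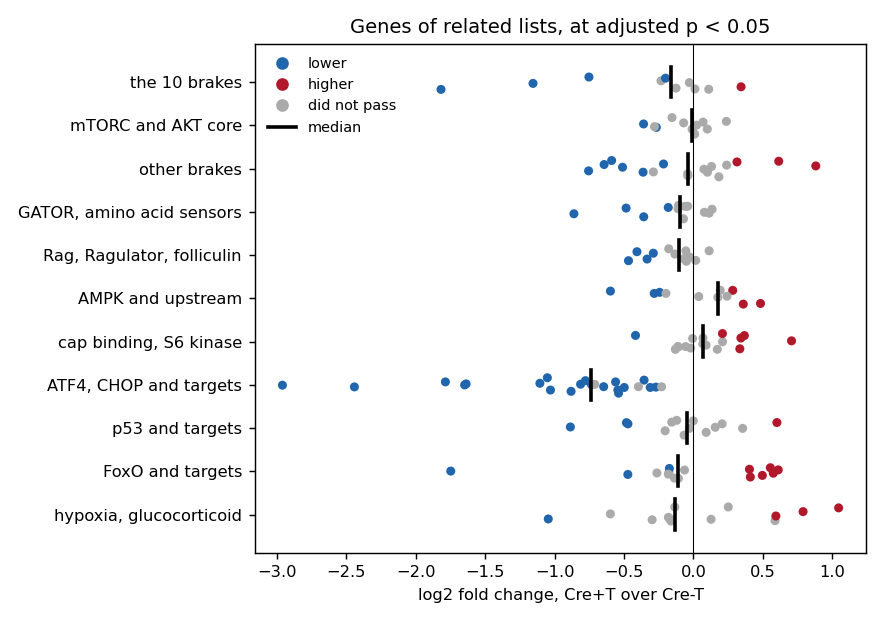
Log2 fold changes (Cre+T over Cre-T, horizontal axis) of the 10 brakes and of the genes of 10 related lists per the authors' deposited table, 1 point per gene, with a black bar at each median. The ATF4 list lies wholly to the left of 0, with a median of -0.74, while the medians of the other lists lie between -0.13 and 0.18; with summed expression equalised all values move left by 0.14.

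The calls on the brakes depended on scaling in their smaller members. When summed expression, estimated from means and fold changes, was set equal in both groups by a shift of 0.14 log2 units, 6 of the 10 genes were lower and none higher, against 38.5% lower and 8.42% higher of all genes. Abundant genes weigh most in such a sum. Among them are Ins2 (mean 16.3 log2 CPM, log2 fold change -0.47), the beta-cell marker Iapp (14.7 and 0.54) and the acinar marker Ctrb1 (12.5 and 1.72) per the authors' deposited table. Iapp and Ctrb1 were picked after their values were seen. The Cre+T sum was the larger, so the fall of Ins2 went against the shift. Which genes made the shift was not tested. Eif4ebp2 and Tsc1 (-0.27, adjusted p = 0.0207) joined the lower genes, and Sesn1 left the higher ones. Trib3, Eif4ebp1, Sesn2 and Tsc2 were lower under each of the 3 other scalings tried, with log2 fold changes of -1.96, -1.30, -0.89 and -0.34 under this one.

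**Figure D5:**
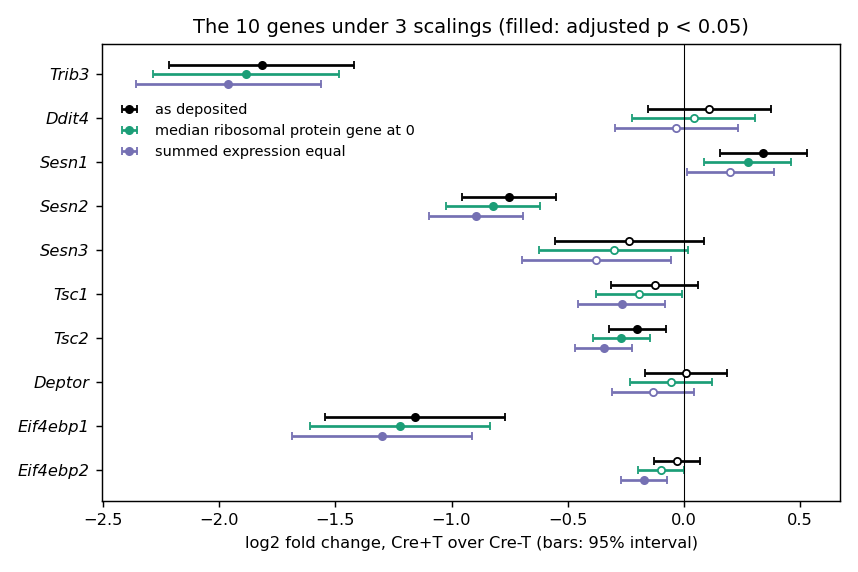
Log2 fold changes of the 10 genes (Cre+T over Cre-T, points with 95% intervals) on the authors' scaling, with the median of 81 ribosomal protein genes at 0 and with summed expression equal; filled points have an adjusted p under 0.05. Trib3, Sesn2, Tsc2 and Eif4ebp1 are filled on the left in all 3, whereas Sesn1 is filled in 2 of them and Tsc1 and Eif4ebp2 in the last alone.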

How the data were processed

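Per the labels' protocols, total RNA of islets from 16 samples was sequenced as 150 bp read pairs. Per the submitters' processing notes, TopHat2 aligned the reads to GRCm38 and limma served for testing. No source used here gives versions, the counting tool, the low-expression filter or the samples fitted, and the depth per sample is unknown. The deposited table gives, per the file headers, a log2 fold change, a log2 mean (read as log2 CPM because its results are named voom and limma), a moderated t score and log-odds score, and a p-value, adjusted p-value and q-value per gene. No voom or count step could be repeated, and no sample could be left out.

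The adjusted p was checked to be Benjamini-Hochberg over all 10208 rows. Standard errors, intervals, estimated group levels (assuming 7 and 9 samples, although limma weights samples) and lengths of annotated exons (GENCODE M21, where 10190 IDs matched without version) were computed in Python 3.11.15 with scipy 1.17.1. A fold change on voom's log2 scale understates changes of low genes. The calling steps were tested on simulated data.

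The 10 members, the gene lists and the tests were chosen with earlier results of these data known. Genes named were the members, the 3 with the smallest p in each list and others said to be picked afterwards. Alternatives were adjusted p thresholds of 0.01 and 0.1, Holm adjustment, minimum means and fold changes, 3 other scalings and another choice of repeated names. All marker lists are described by counts: besides those in the results, alpha markers gave 1 higher and 1 lower of 6, delta 0 and 0 of 3, PP 0 and 0 of 1 and duct 0 and 1 of 5 per the authors' deposited table.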

Additional observations from a re-analysis of the deposited data

How the results depend on the processing

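Trib3 and Sesn2 passed as lower under each of the alternatives. Eif4ebp1 (-1.16, Holm adjusted p = 0.0995), Tsc2 (-0.20, adjusted p = 1) and Sesn1 (0.34, adjusted p = 1) no longer passed with Holm adjustment, which left 2 of the 10 genes lower and 0 higher, against 1.04% and 0.313% of all genes. Tsc2 (-0.20) also missed a threshold of 0.01, which left 3 brakes lower and 1 higher, against 10.6% and 7.41% of all genes. Tsc2 and Sesn1 (0.34) missed a minimum change of 0.5 log2 units. That left 3 brakes lower and 0 higher, against 7.09% and 7.87% of all genes. Among genes at or above the median mean, 4 of the 9 brakes kept were lower and 0 higher, because Sesn1 was left out. Of the genes kept, 15.7% were lower and 21.5% higher. With the median ribosomal protein gene at 0, Deptor changed sign to -0.056. With summed expression equal, Ddit4 (-0.032) and Deptor (-0.13) changed sign, Sesn1 (0.20) no longer passed, and Eif4ebp2 (-0.17) and Tsc1 (-0.27) passed as lower. That left 6 brakes lower and 0 higher, against 38.5% and 8.42% of all genes. This scaling took the share of higher genes among all calls from 46.7% to 17.9% and the median ribosomal scaling to 30.5%.

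Counts of called genes in the related lists moved by over 1.5 times as follows. With Holm adjustment, 3 genes of the ATF4 list and 1 of the GATOR list passed, and 0 in each of the other 8 lists. The shares of all genes were then 0.313% higher and 1.04% lower. At a threshold of 0.01 the counts were 1 for the kinase core, 4 for the other brakes, 2 for GATOR, 2 for the Rag list, 1 for p53, 4 for FoxO and 2 for the hypoxia list. That threshold called 7.41% of all genes higher and 10.6% lower. At 0.1 the counts were 4 for the core and 7 for p53, against 22.6% of all genes higher and 24.7% lower. At or above the median mean they were 4 for the other brakes, 2 for GATOR, 2 for p53 and 3 for FoxO, where fewer genes were tested. There 21.5% of all genes kept were higher and 15.7% lower. With a minimum change of 0.5 they were 0 for the core and the Rag list, 1 each for GATOR, AMPK and cap binding, 2 for p53 and 4 for FoxO. This minimum left 7.87% of all genes higher and 7.09% lower. With summed expression equal they were 5 for the core and 8 each for GATOR and the Rag list, all lower, against 38.5% of all genes lower. Where the construction of an alternative does not show it, the cause was not tested. No paired analysis was possible because the table has no values per sample and the labels give no shared replicate numbers. The depth is unknown, so limits come from the standard errors alone, 0.05 to 0.19 log2 units for the 10 genes.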
